A study of Mus musculus with 6 samples.

Results

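Fatty acid oxidation genes and targets of the peroxisome proliferator-activated receptors (PPARs) were examined in lung RNA-seq libraries from mice kept on a high fat diet. A list of 31 genes was chosen by name for these roles. The rule uses no measured value, but the choice was made with earlier results of these data known. All 31 were found by symbol among the 21900 genes of the deposited table. Each of the 6 libraries was made from total RNA of lung, with no further detail of the tissue taken. By the genotype labels, 3 libraries are wild type and 3 are knockout for Cyp1b1, a cytochrome P450 that acts on fatty acids, steroid hormones, retinoids and aromatic hydrocarbons. All of them came from mice fed the high fat (western) diet for 10 weeks, so diet is shared by both groups and no mouse on another diet was analysed here. Each label holds 2 females and 1 male, and replicate 3 is the male in both. The allele, strain and age were not given in the labels. The labels do not say in words that each library is a separate animal, and the tests compare the labels with the spread among these libraries, which may be technical. Where 3 values of a label are given, they are replicates 1, 2 and 3 in that order, with the male last. These numbers only name the libraries and pair none of them.

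Levels are given as CPM (reads of a gene per 1000000 reads counted), and the depth read from the low values was between 20.2 and 27.6 M (1000000) reads. The level worth 3 reads was at most 0.148 CPM in any library, and the lowest value of any of the 31 genes was 1.24 CPM, so each was above that level in every library. Cyp1b1 itself measured 12.5, 19.04 and 18.5 CPM under the wild type label and 51.2, 56.1 and 48.4 CPM under the knockout label. It was higher where the label says knockout (log2 difference 1.63, SE 0.18, limma adjusted p = 0.0588), so the groups are called "labelled wild type" and "labelled knockout" throughout and each direction rests on those labels. A CPM per gene does not show which exons were read. Labelled knockout 3, a male, stood apart in its blood cell markers: 8 neutrophil genes summed to 6024 CPM there, against 160 to 222 CPM in the females and 296 CPM in the other male. The lung identity of the samples was clear from 8 surfactant and other alveolar type 2 genes, which summed to between 15101 and 21215 CPM, while 3 hepatocyte genes summed to at most 10.4 CPM.

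Long-chain fatty acids are activated to acyl-CoA and carried into mitochondria on carnitine, where a repeated cycle of dehydrogenation, hydration, dehydrogenation and thiolysis removes acetyl-CoA units. Peroxisomes run a related cycle on very long and dicarboxylic chains. PPARs are nuclear receptors that bind fatty acids and their derivatives, pair with retinoid X receptors and switch on many genes of these routes. In the lung, CD36 is abundant in capillary endothelium, and PPAR gamma is needed by alveolar macrophages to handle surfactant lipid.

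PPARs with their partner bind a direct repeat of the half-site AGGTCA with a single base between the copies. The promoter table of RefSeq (build GRCm38.p6, the assembly of mm10) held windows of 300 bases for 27 of the 31 genes. Each window ran from 250 before to 50 after a start listed for the gene, and a gene can have several. The full repeat (AGGTCA, any base, AGGTCA), read on both strands, was in a window of 0 of these 27 genes and of 0.0481% of all 27025 genes with a window. The half-site alone, AGGTCA or its reverse complement TGACCT, was in a window of 7 of the 27 genes (25.9%) and of 18.1% of all genes: Acadm, Acadvl, Cd36, Cpt1a, Plin2, Pparg and Ucp3. Of these, 5 are shown because their genes differ in the results that follow: Cpt1a, Cd36 and Plin2 were highest in the male labelled knockout, and Acadvl and Acadm were not. Capitals mark the half-site letters, and the sequences run 5′ to 3′ on the strand of the gene.
Cpt1a (chr19:3323195-3323224, plus strand): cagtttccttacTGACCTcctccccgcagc
Cd36 (chr5:17836107-17836136, minus strand): ctctgcactttaTGACCTgagattttcagg
Plin2 (chr4:86670260-86670289, minus strand): tttcaggaccccTGACCTaagtcagacagc
Acadvl (chr11:70015498-70015527, minus strand): atggatcaccctAGGTCAggtagaatacag
Acadm (chr3:153944875-153944893, minus strand): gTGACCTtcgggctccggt
The stretches of Cd36 and Cpt1a lie inside the GENCODE spans of these genes (17781690 to 17888801 and 3322334 to 3385733). The RefSeq starts used for these 2 are therefore not the outer ends of those spans. A match to these letters is a description and not a binding site.

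Between the genotype labels, the mitochondrial oxidation enzymes lay close together and the PPAR targets outside the cycle spread more. None of the 31 genes passed limma adjusted over all genes (lowest adjusted p = 0.775), where 2 of 17382 genes tested (0.0115%) passed. At an unadjusted limma p under 0.05 there were 2 of the 31, Pdk4 and Angptl4, both higher where labelled knockout. Over all genes 5.13% had such a p, 1.8% in the higher and 3.33% in the lower direction. In the 4 females alone 0 of the 31 passed, where 0.023% of all genes did. Among all genes with that p, 35.1% were higher where labelled knockout, which became 64.0% after median centring and 53.7% after quantile normalization. The 3 libraries of one label lay wholly above those of the other for 3 of the 31 genes (9.68%), Acads higher and Hadhb and Ehhadh lower where labelled knockout. That share was 9.52% over all genes tested, 3.63% higher and 5.89% lower. The median log2 difference was 0.07 over the 31 genes, with 17 above and 14 below 0, and -0.06 over all genes. Median centring moved the median over all genes from -0.06 to 0.05, so differences of this size depend on the scaling.

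**Figure D1:**
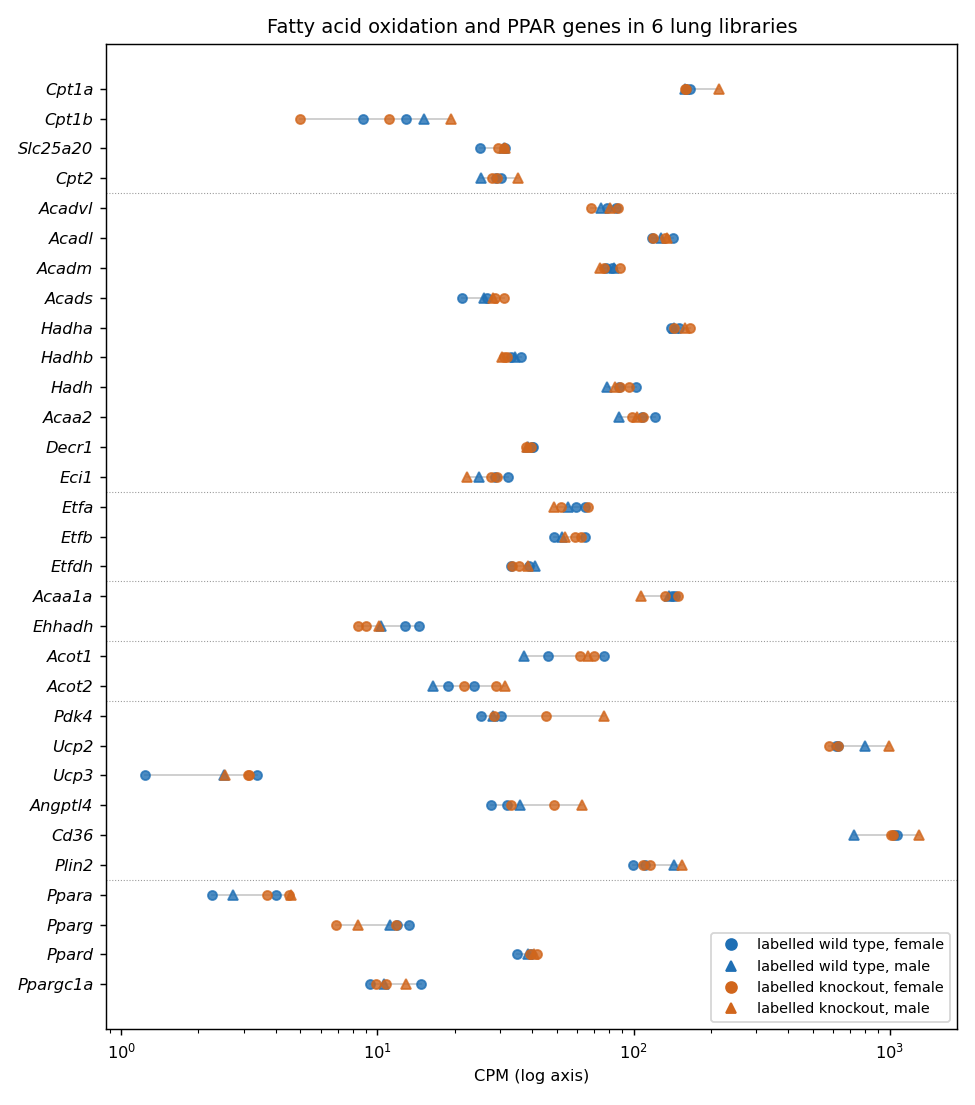
CPM of each of the 31 genes in the 6 lung libraries, on a log axis, with 1 point per library (circles female, triangles male), a grey line over the range, and dotted lines between roles. The levels ran from 1.24 CPM for Ucp3 to 1297 CPM for Cd36, and the range within a gene was narrow for the mitochondrial cycle and wide for Cpt1b and Pdk4.

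**Figure D2:**
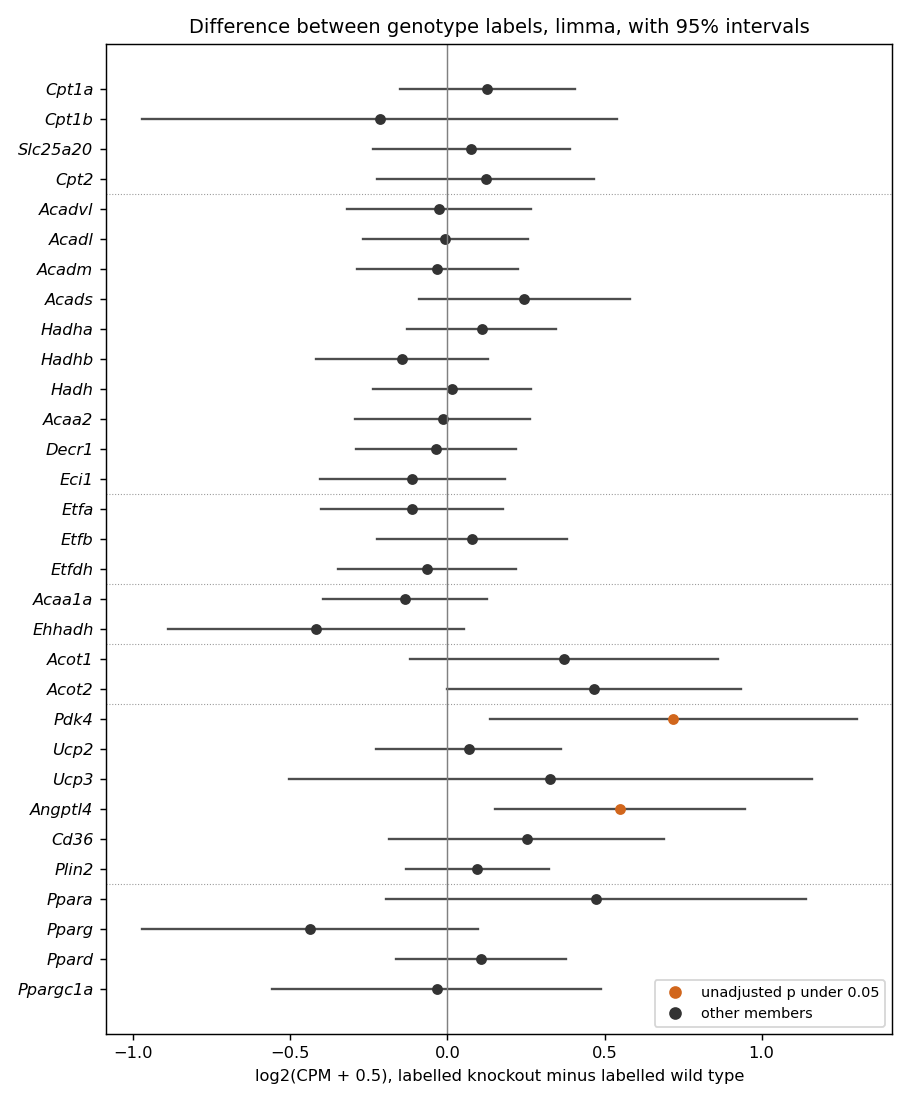
Difference between labelled knockout and labelled wild type on the log2(CPM + 0.5) scale from limma with sex as a term, with its 95% interval, for the 31 genes in order of role. The intervals of Pdk4 and Angptl4, drawn in orange, are the only ones wholly on one side of 0, and neither gene passed after adjustment over all genes.

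The carnitine shuttle was described by 4 genes, of which 0 passed for genotype. Labelled knockout 3 was the highest library for all 4, as it was for 17.6% of all genes tested. Cpt1a, the outer-membrane carnitine palmitoyltransferase of most tissues, measured 166, 160 and 159 CPM under the wild type label and 159, 160 and 216 CPM under the knockout label. The other 5 libraries lay together below labelled knockout 3. Its log2 difference was 0.13 (95% interval -0.15 to 0.40), and -0.03 in the females alone. Cpt2, the inner-membrane partner that frees the acyl group, was at 29.0, 30.4 and 25.3 CPM against 29.2, 27.9 and 35.4 CPM, with the same library on top. The carrier Slc25a20, which exchanges acylcarnitine for carnitine, ran from 25.2 to 31.5 CPM with overlapping groups (log2 difference 0.08, 95% interval -0.24 to 0.39). Labelled knockout 3 led only narrowly for Slc25a20, at 31.5 CPM against 31.4 CPM in labelled wild type 1.

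Cpt1b, the muscle form of the transferase, was the most uneven of the 4, with a coefficient of variation (CV, SD over mean across the 6 libraries) of 41.5%. It measured 8.80, 13.0 and 15.2 CPM under the wild type label and 4.98, 11.1 and 19.3 CPM under the knockout label (log2 difference -0.22, SE 0.33). Both males lay above all 4 females. GENCODE places Cpt1b (chromosome 15, 89416405 to 89425863, minus strand, mm10) inside a read-through gene, Gm44502, and 80.4% of its 50-base windows also occur in that gene's transcripts. Gm44502, chosen after its values were seen, was at 4.58, 0.765 and 2.54 CPM and at 6.70, 0.159 and 3.37 CPM, high where Cpt1b was low among the females. Added together the pair gave 13.4, 13.7 and 17.8 CPM against 11.7, 11.2 and 22.7 CPM, so the spread among the females narrowed and both males stayed on top (log2 difference -0.04, limma adjusted p = 0.963). How reads were split between these genes was set by the authors' counting. Cardiac muscle markers, of which 9 of 9 were measured, none at 0, summed to 1386, 1823 and 1691 CPM against 1204, 1482 and 2278 CPM (in mice, cardiac muscle sheathes the pulmonary veins). They were lowest in labelled knockout 1 and highest in labelled knockout 3, as Cpt1b alone was. The sum of Cpt1b and Gm44502 was also highest in labelled knockout 3. Its lowest value was 11.2 CPM, in another library than labelled knockout 1 (11.7 CPM). The part of the cardiac muscle markers in the spread of Cpt1b was not tested. Adipocyte markers summed to 61.5, 118 and 91.6 CPM against 56.7, 101 and 86.0 CPM. In bulk lung, fewer cells of a type and less RNA per cell cannot be told apart.

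**Figure D3:**
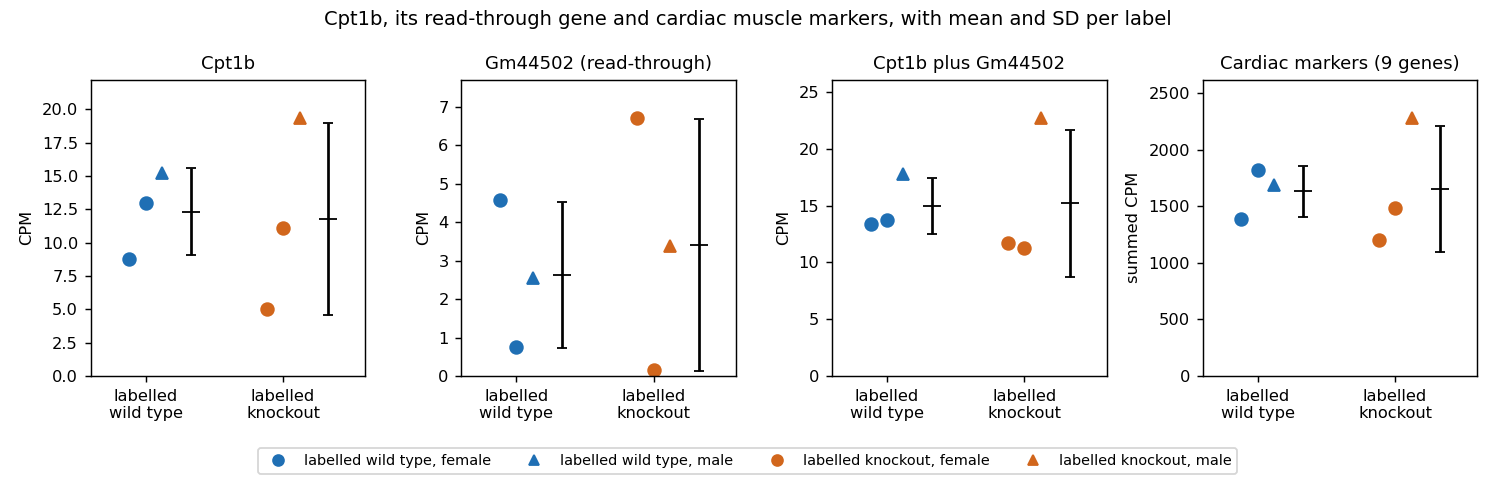
CPM of Cpt1b, of the read-through gene Gm44502 that contains it and of their sum, and the summed CPM of 9 cardiac muscle markers, by genotype label and sex, with the mean and SD of the 3 libraries of each label. In the sum of both genes the females lie between 11.2 and 13.7 CPM and the males at 17.8 and 22.7 CPM.

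The mitochondrial cycle itself varied little. Its 10 enzymes summed to 805, 748 and 721 CPM under the wild type label and to 766, 767 and 755 CPM under the knockout label. These sums overlapped, at 758 ± 43.2 (SD, n = 3) and 763 ± 6.56 CPM (SD, n = 3). Of the 10 genes, 0 passed for genotype, 3 had a log2 difference above 0 and 7 below, and their median was -0.02. The widest ends of their 95% intervals lay at 0.748-fold and 1.496-fold, so a 2-fold change lies outside the interval of each of the 10. The median CV of these genes was 8.25%, and Decr1 was the steadiest at 2.56%. Over all genes tested the median CV was 19.03%, but these reach down to a mean of 0.5 CPM and were not matched for level. Related lists were also low, at 10.7% for 3 electron transfer genes, 12.5% for 28 other mitochondrial genes and 13.5% for 17 other peroxisomal genes.

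Among the acyl-CoA dehydrogenases, which open each round and divide the work by chain length, Acadvl (very long chains) was at 79.6 ± 5.70 and 78.5 ± 9.69 CPM (SD, n = 3 each). Acadl (long chains) was at 130 ± 12.5 and 129 ± 8.80 CPM, and Acadm (medium chains) at 81.4 ± 2.92 and 79.8 ± 7.78 CPM. The groups of each of these overlapped, with log2 differences between -0.03 and -0.01. Acads (short chains, chromosome 5, 115110299 to 115119346) measured 26.8, 21.3 and 26.1 CPM under the wild type label and 31.05, 28.7 and 28.2 CPM under the knockout label. Its groups did not overlap, but the log2 difference of 0.25 (SE 0.15) did not pass (limma adjusted p = 0.775). The later steps were as even: Hadh, the short-chain hydroxyacyl-CoA dehydrogenase, had a log2 difference of 0.01, and Acaa2, the thiolase of the matrix, one of -0.01. Decr1 and Eci1, which deal with the double bonds of unsaturated acids, had -0.04 and -0.11. Eci1 was lower in both males (24.8 and 22.5 CPM) than in any female (27.6 to 32.2 CPM), without passing for sex (limma adjusted p = 0.325).

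Hadha and Hadhb, the alpha and beta subunits of the mitochondrial trifunctional protein that carries long chains through the last 3 steps, are neighbours read in opposite directions on chromosome 5. Hadha ends its minus-strand span at 30155162 and Hadhb starts on the plus strand at 30155248, and the 85 bases between their starts are shown because both genes are read away from them.
Between Hadha and Hadhb (chr5:30155163-30155247, plus strand, GRCm38.p6): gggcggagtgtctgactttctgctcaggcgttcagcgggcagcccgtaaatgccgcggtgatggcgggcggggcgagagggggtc
Neither AGGTCA nor TGACCT is among these letters. Hadha measured 139, 151 and 144 CPM under the wild type label and 166, 144 and 159 CPM under the knockout label (log2 difference 0.11, SE 0.10). Hadhb was at 33.2, 36.5 and 34.5 CPM against 32.0, 31.3 and 30.7 CPM, with all 3 libraries labelled knockout below the others (log2 difference -0.14, SE 0.12, limma adjusted p = 0.778). The ratio of Hadha to Hadhb within a library, which a single factor per library cannot change, was 4.196, 4.13 and 4.19 in labelled wild type 1, 2 and 3. In labelled knockout 1, 2 and 3 it was 5.19, 4.61 and 5.16. The 2 labels did not overlap in this ratio, which was chosen after its values were seen and was given no test. Quantile normalization is not a single factor per library, and after it the log2 differences were 0.09 for Hadha and -0.09 for Hadhb. For Hadhb, 57.5% of its 50-base windows also occur in other genes' transcripts, nearly all of them in the processed pseudogene Gm13910 on chromosome 2, so its level depends on how such reads were counted. The levels of Gm13910 and of the related pseudogene Gm9108 were not analysed here.

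**Figure D4:**
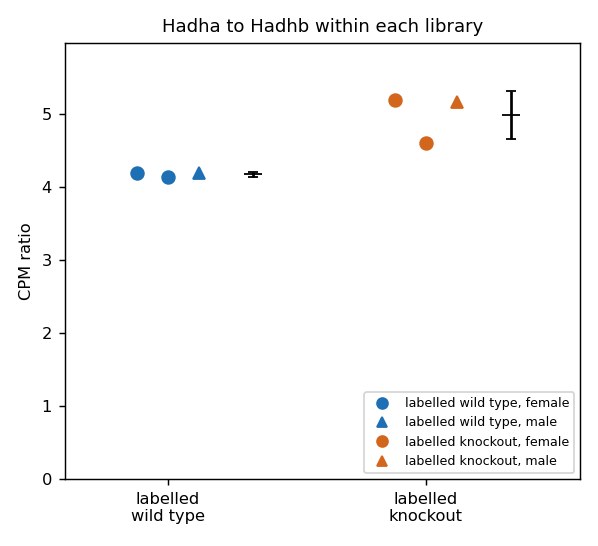
Ratio of Hadha CPM to Hadhb CPM within each of the 6 libraries by genotype label and sex, with the mean and SD of the 3 libraries of each label. Labelled wild type lies between 4.13 and 4.196 and labelled knockout between 4.61 and 5.19.

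Electrons from the acyl-CoA dehydrogenases pass through the electron transfer flavoprotein, made of Etfa and Etfb, to its oxidoreductase Etfdh in the inner membrane. The 3 genes summed to 153 ± 8.39 and 150 ± 10.7 CPM (SD, n = 3 each) under the wild type and knockout labels. Etfa ran from 48.8 to 66.2 CPM, Etfb from 49.0 to 64.8 CPM and Etfdh from 33.1 to 41.3 CPM over the 6 libraries. Their groups overlapped, and the log2 differences were -0.11, 0.08 and -0.07. Of the 50-base windows of Etfb, 57.7% are shared with the overlapping gene Gm45233.

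Of the peroxisomal enzymes, Ehhadh, which carries both the hydratase and the dehydrogenase step, was lower in every library labelled knockout. Ehhadh (chromosome 16, 21761287 to 21787807, minus strand) measured 12.9, 14.5 and 10.3 CPM under the wild type label and 8.42, 9.03 and 10.2 CPM under the knockout label. The 2 males, at 10.3 and 10.2 CPM, nearly met, and the gap was between the females. Its log2 difference was -0.42 (SE 0.20, limma adjusted p = 0.775), and -0.62 in the females alone, where it was the single gene of the 31 with an unadjusted limma p under 0.05 (2.63% of all genes there). Acaa1a, the peroxisomal thiolase, was at 142, 144 and 137 CPM against 133, 150 and 107 CPM, lowest in labelled knockout 3. Its close copy Acaa1b shares 26.7% of the 50-base windows of Acaa1a.

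The acyl-CoA thioesterases Acot1, in the cytosol, and Acot2, in mitochondria, split acyl-CoA into free acid and CoA. Acot1 measured 76.5, 46.4 and 37.3 CPM under the wild type label and 62.0, 70.0 and 66.6 CPM under the knockout label. Labelled wild type 1 was the highest of all and the other two of that label the lowest, so the groups overlapped (log2 difference 0.37, 95% interval -0.12 to 0.86). Acot2 was at 23.9, 18.8 and 16.5 CPM against 29.1, 21.7 and 31.5 CPM (log2 difference 0.47, SE 0.20, limma adjusted p = 0.775). The 2 genes share sequence: 23.5% of the 50-base windows of Acot1 occur in Acot2. Their sum, which a split of reads between them would not change, was 100.4, 65.2 and 53.7 CPM against 91.1, 91.7 and 98.1 CPM, again overlapping through labelled wild type 1. In all, 32.7% of the windows of Acot1 and 27.7% of those of Acot2 occur in other genes, among them Acot3, Acot4, Acot5 and Acot6. The sum can therefore still depend on how reads shared with those genes were counted.

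PPAR target genes outside the cycle had the highest median CV of the 7 roles (26.1%), and 6 of 6 had a log2 difference above 0, from 0.07 for Ucp2 to 0.72 for Pdk4, while 0 passed after adjustment. The longer list of other PPAR targets had 9 of 26 genes tested above 0, 17 below and a median log2 difference of -0.11. In the females alone Ucp2 and Cd36 were at -0.05 and -0.04. Labelled knockout 3 was the highest library for 5 of the 6, beside 17.6% of all genes tested.

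Pdk4, the kinase that switches off pyruvate dehydrogenase and so spares glucose when fat is burned, lies on chromosome 6 from 5483351 to 5496309 on the minus strand. It measured 25.4, 30.4 and 28.3 CPM under the wild type label and 28.5, 45.5 and 76.5 CPM under the knockout label. Labelled knockout 1 lay within the range of labelled wild type, and the others above it. The means were 28.03 ± 2.51 and 50.2 ± 24.4 CPM (SD, n = 3 each), a log2 difference of 0.72 (95% interval 0.13 to 1.303, limma adjusted p = 0.775). Without labelled knockout 3 the difference was 0.37, with an unadjusted p above 0.05, and leaving out labelled wild type 3, which leaves the other male to the sex term, gave 0.37 as well. The unadjusted p was also above 0.05 without labelled knockout 2 (log2 difference 0.63) or labelled wild type 1 (0.75), and without labelled knockout 1 the difference was 1.01. The 219 bases before its annotated start are shown because this gene had the greatest difference of the 31, and they hold neither AGGTCA nor TGACCT.
Pdk4 (chr6:5496310-5496528, minus strand, GRCm38.p6): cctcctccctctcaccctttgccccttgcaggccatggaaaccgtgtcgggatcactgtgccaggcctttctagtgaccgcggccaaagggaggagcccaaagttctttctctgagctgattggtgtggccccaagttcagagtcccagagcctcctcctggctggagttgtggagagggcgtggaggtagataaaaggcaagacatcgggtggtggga

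Angptl4, a secreted inhibitor of lipoprotein lipase (chromosome 17, 33773750 to 33781830, minus strand), measured 27.7, 32.1 and 36.1 CPM under the wild type label and 33.3, 48.9 and 62.8 CPM under the knockout label. As with Pdk4, labelled knockout 1 lay within the labelled wild type range and labelled knockout 3 was the highest. The log2 difference was 0.55 (95% interval 0.15 to 0.95, limma adjusted p = 0.775) and 0.43 in the females alone. Its unadjusted p was above 0.05 there, without either male and without labelled knockout 2 (0.43). Cyp1b1 lies on the same chromosome, from 79701537 to 79715061, as do Eci1 and Ppard (log2 differences -0.11 and 0.11).

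Cd36, a fatty acid transporter, measured 1063, 1034 and 724 CPM under the wild type label and 1011, 1025 and 1297 CPM under the knockout label. The females of both labels lay between 1011 and 1063 CPM, and the males were the lowest and the highest library. The difference of the genotype difference between males and females was 0.88 on the log2 scale (SE 0.19). It did not pass limma's interaction test (adjusted p = 0.0528). It passed after median centring (adjusted p = 0.0255), with robust moderation (0.0289) and without labelled wild type 1 or 2 (0.0456 each). It did not pass after quantile normalization (0.0771), with no filter (0.187) or without labelled knockout 1 or 2 (0.136 and 0.123). Endothelial markers, of which 6 of 6 were measured, none at 0, summed to 3429, 2728 and 2274 CPM against 3353, 3219 and 3365 CPM, also lowest in labelled wild type 3. Their part in the level of Cd36 was not tested.

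Plin2, the coat protein of lipid droplets, and Ucp2, an inner-membrane carrier common in immune cells, differed by sex more than by label. For Plin2 the males gave 144 and 154 CPM and the females 99.9 to 115 CPM (log2 difference 0.45, limma adjusted p = 0.0995 for sex). For Ucp2 the males gave 802 and 993 CPM and the females 576 to 627 CPM (0.54, limma adjusted p = 0.117). Neither passed over all libraries, and Ucp2 passed for sex without labelled wild type 3 (adjusted p = 0.02), which leaves 1 male. Both males also had the highest sums of neutrophil markers (296 and 6024 CPM) and of 5 erythroid markers (2760 and 5848 CPM, against 851 to 1607 CPM in the females), and their part in these levels was not tested. Ucp3, the uncoupling protein of muscle and the neighbour of Ucp2 on chromosome 7, was between 1.24 and 3.39 CPM with overlapping groups.

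**Figure D5:**
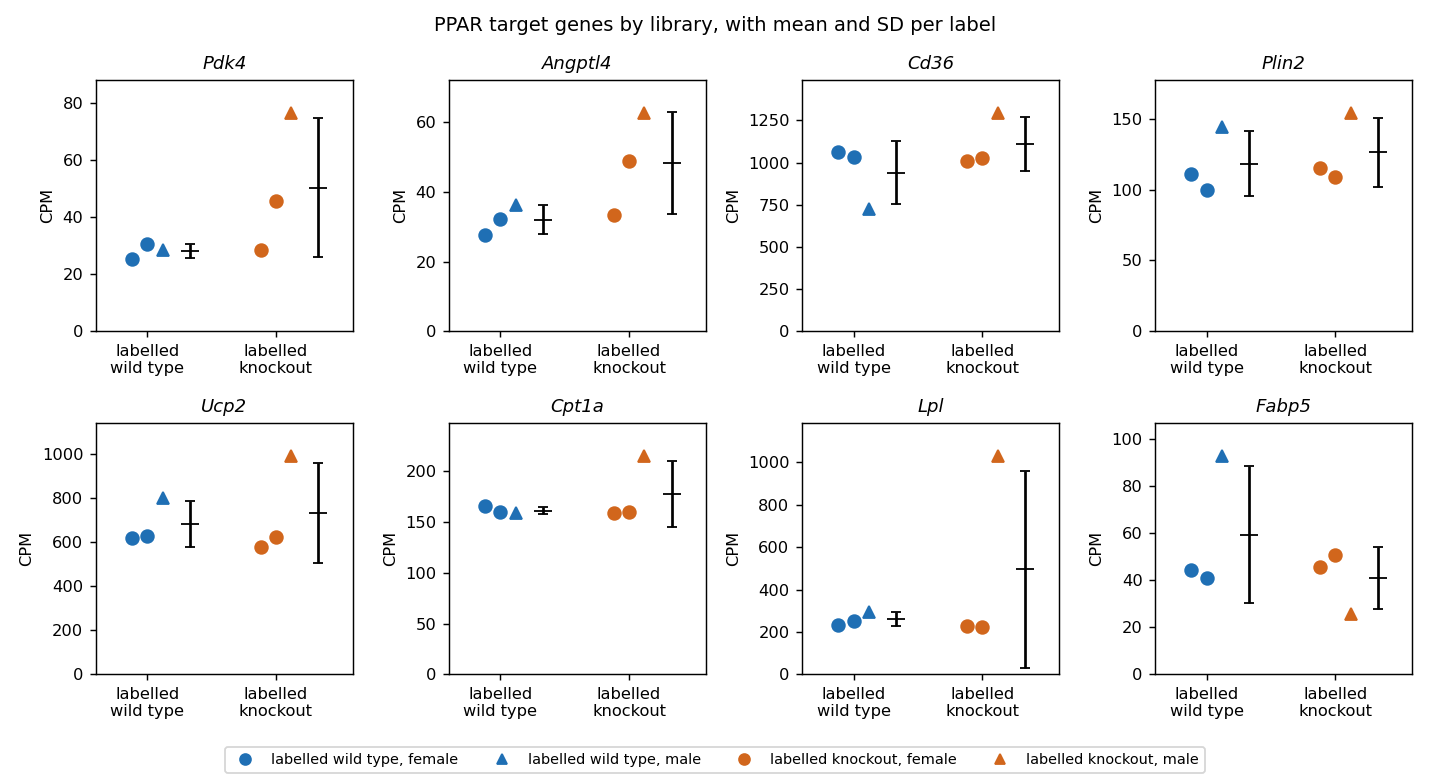
CPM of 8 genes linked to PPARs in each library by genotype label and sex, with the mean and SD of the 3 libraries of each label. Labelled knockout 3, the orange triangle, is the highest library for each gene shown except Fabp5, where it is the lowest at 25.8 CPM. The 8 genes are a selection that leaves out Ucp3, for which labelled knockout 3 was not the highest. Of 28 other PPAR targets, 7 were highest in labelled knockout 3 and 8 in the male labelled wild type.

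The receptors were expressed at unequal levels. Per kilobase of annotated exons of protein-coding transcripts, Ppard was at 11.98 ± 0.720 CPM per kb (SD, n = 6), Pparg at 4.46 ± 1.02 and Ppara at 1.03 ± 0.269. The values of neighbours in this order did not overlap in any library. With all annotated exons as the length, the means were 5.22, 3.59 and 0.948 CPM per kb. The order was kept, but the gap between Ppard and Pparg was much smaller. Ppard, which acts in many tissues, was also among the steadiest of the 31 genes (CV 6.01%), at 37.8 ± 2.42 and 40.7 ± 1.35 CPM (SD, n = 3 each). Pparg measured 11.9, 13.3 and 11.2 CPM under the wild type label and 6.90, 11.8 and 8.42 CPM under the knockout label. The groups overlapped through labelled knockout 2 (log2 difference -0.44, SE 0.23, limma adjusted p = 0.775). Alveolar macrophage markers, 9 of 9 measured and none at 0, summed to 488, 426 and 464 CPM against 264, 268 and 446 CPM. That gap was in 1 gene, Chil3, a chitinase-like protein, at 279, 224 and 238 CPM against 58.4, 64.5 and 231 CPM. The other 8 markers summed to 209, 202 and 225 CPM against 206, 203 and 215 CPM, with overlapping groups. Ppara, the receptor of liver and other fat-burning tissues, was at 2.26, 4.01 and 2.73 CPM against 3.72, 4.50 and 4.6003 CPM (log2 difference 0.47, 95% interval -0.19 to 1.14). The coactivator Ppargc1a, which drives mitochondrial genes, ran from 9.34 to 14.8 CPM with overlapping groups (log2 difference -0.03).

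Per kilobase, Cd36 (290.04 ± 51.6 CPM per kb, SD, n = 6) and Ucp2 (177 ± 40.2) were the highest of the 31 genes, followed by Acaa1a (76.9 ± 8.57), Acaa2 (68.9 ± 7.49) and Acadl (67.5 ± 5.04), which overlapped one another and Plin2 and Etfb. The lowest were Ppargc1a, Ucp3 and Ppara, with Ucp3 at 1.09 ± 0.320. Cpt1a exceeded Cpt1b in every library, by between 6.995 and 21.4 times per kilobase. With the reads of Gm44502 added to Cpt1b the range was 5.99 to 9.54 times, and the 21.4 of labelled knockout 1 became 9.11. With all annotated exons as the length, 13 of the 31 values fell by more than 1.5 times. Cd36 and Ucp2 were still the highest, and Acaa1a fell to 30.7 CPM per kb, from rank 3 to rank 8.

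By sex and by the interaction of genotype and sex, 0 of the 31 genes passed limma (lowest adjusted p = 0.0995 and 0.0528), where 0.834% and 2.54% of all genes passed. At an unadjusted p under 0.05 the interaction held 3 of the 31, Cpt1a, Pdk4 and Cd36, and 17.9% of all genes. Both males lay above all females for Cpt1b, Ucp2 and Plin2, and below for Hadh and Eci1. Over all genes tested 9.28% lay above and 14.7% below. With 1 male per label, an interaction compares 2 lungs against the spread of the females.

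Other genes of the same routes were taken from 5 lists, with 110 of 120 symbols found in the table and 106 tested. For genotype 0 of the 106 passed, and 4 had an unadjusted limma p under 0.05, with Mgll higher and G0s2, Mcee and Esrra lower under the knockout label. Over all genes 5.13% had such a p, so these 4 are no more than the background holds. Their median log2 difference was -0.0019. The 2 labels did not overlap for 10 of the 110 (9.09%), 4 higher and 6 lower, beside 9.52% of all genes. The genes named from these lists are examples at that background.

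In mitochondria, Mcee, the epimerase of the propionate route, was at 13.4 ± 0.548 and 9.27 ± 1.86 CPM (SD, n = 3 each; log2 difference -0.52, limma adjusted p = 0.775), and Acad9, a dehydrogenase also needed to assemble respiratory complex I, at 27.4 ± 0.834 and 32.9 ± 3.64 CPM. Both had groups that did not overlap. Among 17 peroxisomal genes, Crot, which makes acylcarnitine for export, was at 34.8 ± 1.154 and 28.9 ± 3.72 CPM and Acaa1b at 4.65 ± 1.58 and 7.497 ± 2.28 CPM, neither of which passed. Of the other thioesterases, 0 of 8 tested passed, with a median CV of 17.7% and 95% intervals reaching 1.91-fold, and the 2 with the smallest p for genotype, Acot8 and Acot13, had log2 differences of -0.18 and -0.08. Of 27 PPAR partners and coregulators, the orphan receptor Esrra was at 36.3, 35.0 and 48.6 CPM against 26.3, 33.3 and 31.1 CPM (log2 difference -0.39, limma adjusted p = 0.775), and Gabpa at 61.7 ± 1.42 and 53.8 ± 2.35 CPM. The groups of both lay apart.

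Of the 106 genes, 2 passed for the interaction, both other PPAR targets, where 2.54% of all genes passed. Both calls were lost with no filter on low values (limma adjusted p = 0.0786 for Lpl and 0.0928 for Fabp5). Lpl, the lipase that frees fatty acids from lipoproteins and that Angptl4 inhibits, measured 232, 254 and 295 CPM under the wild type label and 229, 224 and 1030.2 CPM under the knockout label. Labelled knockout 3 was far above the other 5 (interaction log2 1.90, SE 0.18, limma adjusted p = 0.00144). Fabp5, a fatty acid chaperone, was at 44.2, 40.8 and 92.8 CPM against 45.7, 50.7 and 25.8 CPM, highest in the male labelled wild type and lowest in the male labelled knockout (interaction log2 -2.005, SE 0.22, limma adjusted p = 0.00343). Each contrast rests on 1 male per label, in libraries whose neutrophil markers were at 296 and 6024 CPM; the part of these in the 2 genes was not tested. G0s2, an inhibitor of triglyceride lipase, and Mgll, monoglyceride lipase, were chosen after their values were seen. G0s2 was at 53.1 ± 10.1 and 34.02 ± 10.1 CPM with groups that did not overlap (log2 difference -0.66, SE 0.20, limma adjusted p = 0.775), and Mgll at 134 ± 22.8 and 179 ± 32.3 CPM with overlapping groups (0.42, SE 0.17, limma adjusted p = 0.775).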

How the data were processed

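The authors' deposited table gives CPM per gene, 1 column per library, with 0.0001 added to each value. Per the submitters' processing notes the build was mm10 and the tools TopHat2 and Partek; their versions, the annotation, any filters and the use of strand were not stated, so reads of overlapping or antisense genes may be mixed. Depth was read from the step between low values; between 82.4% and 83.6% of values worth up to 100 reads were whole multiples within 0.05, so no count model was used.

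limma 3.58.1 (R 4.3.3, variance trend) took log2(CPM + 0.5) values, with terms for sex and genotype label, over 17382 genes with a mean of at least 0.5 CPM; all 31 genes passed this filter. The interaction came from a model with the product term. Tests were two-sided, adjusted by Benjamini-Hochberg over all genes tested, with a threshold of 0.05. The fit was run on simulated data with the spreads shuffled among genes and no library set apart. That setting differs from these libraries, so the run does not measure how many differences were missed here. Positions, lengths and shared 50-base windows came from GENCODE M21, which held 99.75% of the gene identifiers. Figures were drawn with matplotlib 3.10.9 under Python 3.11.15.

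The 31 genes, the lists and the tests were chosen with earlier results of these data known. Outside the 31 genes, those named passed a test (at most 3 per list and term) or had the 2 smallest genotype p-values of a pathway list; other names were chosen after their values were seen. Alternatives covered pseudocount, filter, scaling, moderation, the sex term, the 4 females and each library left out; sums of Cpt1b with its read-through gene, macrophage markers without Chil3, another gene length and the settings for Lpl and Fabp5 were added after seeing the data. Fold changes on this log scale understate those of low genes.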

Additional observations from a re-analysis of the deposited data

Results flagged for a closer look

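In the 4 females, 3 of the 31 genes had 1 library far from the other 3, measured as its gap over the group's range. For normally distributed values, chance gives about 1 in 20. The share over all genes tested was not computed, so these 3 genes are not set against a measured background. The values were 0.854 for Cpt1a (166 CPM in labelled wild type 1 against 159 to 160 CPM), 0.850 for Ucp2 (576 CPM in labelled knockout 1 against 619 to 627 CPM) and 0.882 for Ucp3 (1.24 CPM in labelled wild type 2 against 3.14 to 3.39 CPM).

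The genotype difference in males was not that in females, by limma's interaction term, for 2 of the 26 other PPAR targets tested, 1 of 9 alveolar macrophage markers and 6 of 8 neutrophil markers, beside 2.54% of all genes. Each rests on 1 male per label. On the log2 scale it was 1.90 for Lpl and -2.005 for Fabp5, among PPAR targets, and 1.97 for Chil3. Chil3 was the only one of the 9 listed macrophage markers to pass, so its value does not stand for the list. For Ngp, Mmp8 and Retnlg, the 3 neutrophil markers with the smallest p, it was 7.62, 5.56 and 4.66.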

How the results depend on the processing

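No paired analysis was possible because the submitters' labels number no replicates, and the numbers used here follow deposit order. With 0 of the 31 genes called for genotype, the count was 0 under each alternative run, and 0 of 465 single log2 differences passed. Of these, 450 moved by less than the SD within labels. The filter, the moderation and the sex term cannot move a log2 difference here. The 4 females and either male left out all give the same one, so 450 of 465 overstates how steady the differences were. The count at an unadjusted p under 0.05 (2, Pdk4 and Angptl4) was 4 after median centring, 1 in the 4 females and between 1 and 3 with each library left out; the 1 is Ehhadh, in the females and without either male. Without labelled knockout 2 the 2 were Acot2 and Pparg, and without labelled wild type 1 the 3 were Acot1, Acot2 and Angptl4. Calls for the interaction (0) were 1 after median centring and 1 with robust moderation, Cd36 each time, and between 0 and 2 with a library left out (Cd36 without labelled wild type 1, Acot1 and Cd36 without labelled wild type 2). The interaction could not be fitted without a male. Calls for sex (0) were between 0 and 1 with a library left out, the 1 being Ucp2 without labelled wild type 3. The median log2 difference of 0.07 was -0.03 in the females. Median centring changed the sign of 7 genes and quantile normalization that of 2, each near 0. With no filter the interaction of Lpl and Fabp5 had adjusted p = 0.0786 and 0.0928. Depth put every value of the 31 genes above 3 reads; 3 libraries per label limit the rest.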

Other observations

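Labelled knockout 3 was the highest of the 6 libraries for 11 of the 31 genes (35.5%), beside 17.6% of all genes tested, and the lowest for 5 (16.1%), beside 37.5%. The 11 were 4 of 4 carnitine shuttle genes, 5 of 6 PPAR targets outside the cycle, 1 of 2 thioesterases and 1 of 4 receptor and coactivator genes, with 0 of 10 enzymes of the mitochondrial cycle. The lead was narrow for Slc25a20 (31.5 against 31.4 CPM in labelled wild type 1) and Ppara (4.6 against 4.5 CPM in labelled knockout 2). The male labelled wild type was the highest library for 1 of the 31 (3.23%), beside 25.7% of all genes. Of the longer lists, 28 other PPAR targets had 7 highest in labelled knockout 3 and 8 in the male labelled wild type, and 17 other peroxisomal genes had 2 and 3. For 28 other mitochondrial genes these counts were 7 and 3, for 27 partners and coregulators 11 and 8, and for 10 other thioesterases 2 and 0. These counts were made after the values were seen and were not tested.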
